A study of Homo sapiens with 6 samples.

Results

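Regions where the H3K27me3 map of Pfeiffer cells stood apart from the maps of both WSU-DLCL2 and KARPAS-422 cells were collected from lists of enriched intervals, called islands. Of 21258 autosomal Pfeiffer islands, 2288 shared no base with an island of either other line and are called gained. Stretches of at least 5 kb that both other lines covered and Pfeiffer did not are called lost, and there were 5378 of them. The terms describe presence and absence in 1 library per line and imply no order of events. Together the members made 7666 regions, set against 71913 autosomal islands in the 3 lists.

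All 3 lines derive from diffuse large B cell lymphoma, and the labels describe each as an EZH2 mutant. They list average gIC50 values of 28 nM for Pfeiffer, 134 nM for WSU-DLCL2 and 232 nM for KARPAS-422, and the series concerns lines that differ in sensitivity to the EZH2 inhibitor GSK126. The labels name no drug treatment of the profiled cells, which were kept in medium before fixation with formaldehyde. Each line had 1 library made with an anti-H3K27me3 antibody and 1 input library of chromatin that was not immunoprecipitated. There were no replicates, so no difference between lines was tested and no p-value is given. Wild-type lines, which the series title mentions, were not analysed here.

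EZH2 is the catalytic subunit of Polycomb repressive complex 2, which adds methyl groups to lysine 27 of histone H3. The trimethylated form, H3K27me3, marks repressed chromatin, often in broad domains over developmental genes. EZH2 is needed in germinal centre B cells, the normal counterpart of many of these lymphomas, and mutations of its catalytic domain are known to raise the trimethylated form.

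The Pfeiffer list held 17024803 H3K27me3 reads and 8800268 input reads in autosomal islands, WSU-DLCL2 held 17188115 and 8224578, and KARPAS-422 held 16039824 and 5694645. Reads outside islands are unknown, so an interval without an island was not called against its input and may still hold H3K27me3 reads. Each island is described by its H3K27me3 reads divided by its input reads, and this ratio is divided by the median of its own list. A relative ratio of 1 is therefore a typical island of that line. Before this division the median ratio was 1.83 for Pfeiffer, 1.96 for WSU-DLCL2 and 2.65 for KARPAS-422. Intervals of relative ratios are exact 95% intervals for a ratio of 2 counts. Only counting error is covered, because reads amplified by PCR carry no molecular identifiers and can repeat a molecule. The intervals also make no allowance for islands picked by their ratio.

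Gained islands were short and mostly of modest enrichment. They made up 10.8% of Pfeiffer islands and, with 37.9 Mb, 5.13% of the bases that Pfeiffer covered. Their median length was 13.5 kb, against 21.75 kb for the other Pfeiffer islands. Short gained islands were not particular to Pfeiffer. In WSU-DLCL2 the medians were 11.25 kb for gained and 20.25 kb for other islands, and in KARPAS-422 10.5 and 17.25 kb. The shares of gained islands come from the rule itself. By the same rule 12.2% of WSU-DLCL2 islands and 16.2% of KARPAS-422 islands were gained, so Pfeiffer had the lowest share of the 3 lines. That order was reversed with 21258 islands in each list, kept by false discovery rate and then ratio. Pfeiffer then had 3111 gained islands, WSU-DLCL2 2980 and KARPAS-422 2565. This setting kept every Pfeiffer island and shortened only the lists of the other lines, so the Pfeiffer count could only rise. In the other list settings Pfeiffer kept the lowest share. It was 13.2% against 16.0% (WSU-DLCL2) and 16.0% (KARPAS-422) at a false discovery rate of at most 1e-10. With equal covered length it was 10.5% against 12.8% and 17.1%. Apart from the one-sided shortening of the lists, why the order changed was not tested.

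The share of gained islands fell with length. Among Pfeiffer islands under 5 kb, 23.5% were gained, and among those of 50 kb or more 1.48% were, 55 islands in number. A long island has more bases at which to meet another line's island, so this order is partly built into the rule. The relative ratio of gained islands also fell with length, from a median of 1.14 below 5 kb to 0.795 at 50 kb or more. The other Pfeiffer islands had medians of 1.25 below 5 kb, 0.974 at 10 to 20 kb and 1.08 at 50 kb or more. Their ratio thus also fell at first, and gained islands had the lower median in every length class. Over all lengths the median of gained islands was 0.923, with the middle 50% of values between 0.846 and 1.03, against 1.01 for the other Pfeiffer islands. A relative ratio above 1 was reached by 30.4% of gained islands. Per kb, gained islands held 0.914 times the list median of H3K27me3 reads and 0.982 times that of input reads. They thus lay lower in H3K27me3 reads than in input reads.

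**Figure D1:**
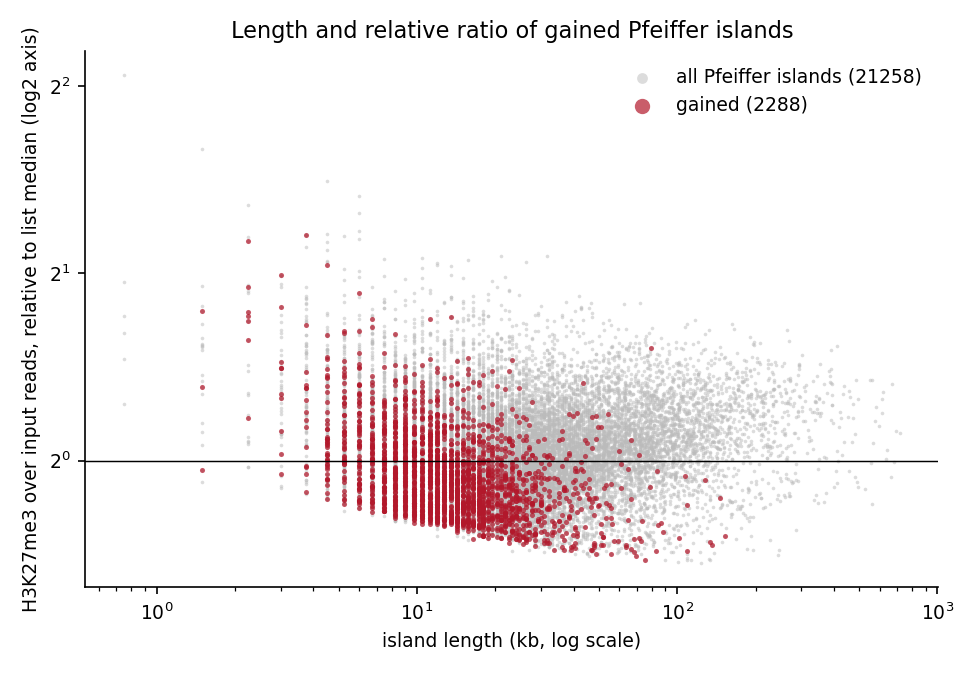
Each point is 1 autosomal Pfeiffer island, by length in kb (log axis) and by H3K27me3 over input reads relative to the list median (log2 axis). The 2288 gained islands, in red, lie mostly below 20 kb, and those of 50 kb or more lie mostly below the line at a relative ratio of 1.

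Many gained islands lay well away from the islands of the other lines. The nearest island of another line was at a median distance of 19.5 kb, at least 10 kb away for 1510 gained islands and at least 100 kb away for 338. That nearest island belonged to WSU-DLCL2 for 1095 and to KARPAS-422 for 1045, with 148 at equal distance. Neither line was thus consistently the closer. The farthest gained island, on chromosome 5 from 23294251 to 23300250, lay 5779.5 kb from the next island of another line and had a relative ratio of 0.899. At the edge of the rule, 34 gained islands lay within 750 bases of another line's island and had a median relative ratio of 0.919. Just outside it, 40 islands overlapped by a single window of 750 bases and had a median of 0.986.

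Gained islands came in clusters. Of the 2288, 1298 (56.7%) directly followed or preceded another gained island in the Pfeiffer list, in 432 runs. Of all Pfeiffer islands, 10.8% were gained. That share is for a single island and the 56.7% is for a neighbour on either side, so they are not directly comparable. Runs were not counted in the other lines, so clustering is not shown to be particular to Pfeiffer. The run with the most islands lay on chromosome 10 from 89414251 to 91158750 and had 20, with 7453 H3K27me3 and 4601 input reads and a pooled relative ratio of 0.884 (0.852 to 0.918). Input reads per kb of islands, pooled around each 1 Mb bin and divided by the line's autosomal median, serve as a local reference below. Over that run this local input was 0.999 for Pfeiffer, 0.848 for WSU-DLCL2 and 0.531 for KARPAS-422. Input was therefore low in KARPAS-422 where its islands were missing, and whether this bears on the run was not tested. A run on chromosome 1 from 66038251 to 66383250 had 9 gained islands that filled 45.4% of 345 kb. There the input was even, at 1.02, 0.968 and 0.992 in the 3 lines.

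A bin is called balanced where the input of all 3 lines lay within 15% of its median, low at 0.75 or less and raised at 1.3 or more. Balanced bins held 1493 of the gained islands and 60.7% of gained bases, close to the 57.8% of all Pfeiffer-covered bases in such bins. The ranking of balanced bins described next was chosen after values had been seen.

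The most gained bases in a balanced bin lay on chromosome 3 from 61000001 to 62000000. Pfeiffer islands covered 50.4% of the bin, WSU-DLCL2 islands 2.03% and KARPAS-422 islands 4.28%. Of 23 Pfeiffer islands there, 18 were gained. Pfeiffer thus had a broken domain over much of a megabase in which each other line had no more than 4 islands. The input was 0.966, 1.02 and 1.00 times the median of each line. Pooled over the 23 islands, the relative ratio was 0.956 (0.924 to 0.989), on 8997 H3K27me3 and 5138 input reads. The domain was therefore of ordinary enrichment for a Pfeiffer island. One of its islands, 61548751 to 61552500, was among the 12 of highest relative ratio, at 1.65 (1.12 to 2.50).

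The bin on chromosome 7 from 93000001 to 94000000 was covered to 33.5% by Pfeiffer islands, to 9.53% by WSU-DLCL2 islands and to 0% by KARPAS-422 islands, with 12 gained islands. On chromosome 18 the bin from 7000001 to 8000000 was covered to 26.4%, 0% and 4.73%, with 14 gained islands. In each of these bins 1 of the other lines had no island at all. The chromosome 18 bin had a pooled relative ratio of 1.08 (1.02 to 1.13), above that of the chromosome 7 bin at 0.880 (0.845 to 0.916). Pfeiffer covered 66.7% of the bin on chromosome 9 from 16000001 to 17000000, WSU-DLCL2 2.85% and KARPAS-422 35.0%. That bin separated Pfeiffer from WSU-DLCL2 more than from KARPAS-422.

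A further balanced bin, on chromosome 14 from 106000001 to 107000000, lies near the end of the long arm, the arm that carries the immunoglobulin heavy chain locus. Gene positions on hg19 were not used here, so no island is assigned to that locus. Pfeiffer had 24 islands in the bin, 11 of them gained, and covered 41.3% of it. WSU-DLCL2 covered 8.70% and KARPAS-422 19.1%. The islands of the other lines had the higher pooled relative ratios, at 1.63 (1.53 to 1.75) for WSU-DLCL2 and 1.34 (1.28 to 1.41) for KARPAS-422, against 1.13 (1.09 to 1.16) for Pfeiffer. Single islands varied widely: the 7 WSU-DLCL2 islands had values from 1.13 to 2.34, the 14 KARPAS-422 islands from 0.878 to 2.78 and the Pfeiffer islands from 0.923 to 2.31. Lost stretches were ranked by the smaller of the relative ratios of the 2 islands that hold them. Ranked were only those 10 kb or more from Pfeiffer islands, with 50 or more H3K27me3 reads in both holding islands. The highest of these lay in the same bin, from 106053751 to 106059000, a length of 5.25 kb. The WSU-DLCL2 island that holds it had a relative ratio of 2.34 (1.91 to 2.88), and the KARPAS-422 island 2.19 (1.48 to 3.34).

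**Figure D2:**
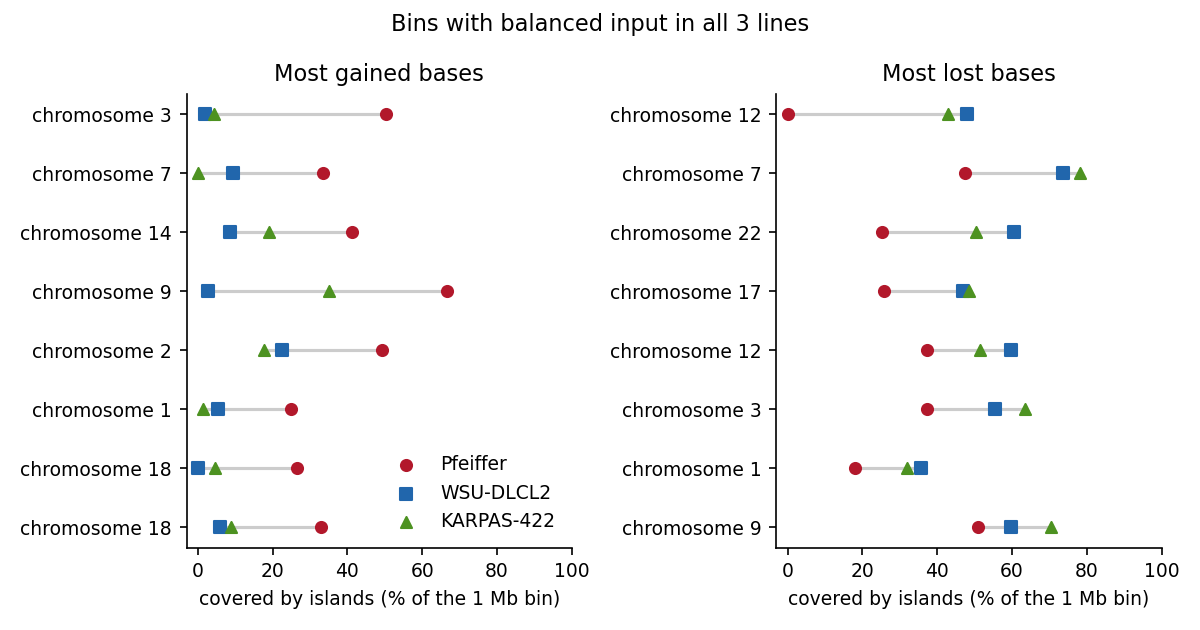
Percent of a 1 Mb bin covered by islands of Pfeiffer (circles), WSU-DLCL2 (squares) and KARPAS-422 (triangles), for the 8 balanced bins with the most gained bases (left) and the 8 with the most lost bases (right). In the first row on each side Pfeiffer stands at 50.4% against 2.03% and 4.28% on chromosome 3, and at 0% against 47.9% and 42.9% on chromosome 12.

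Single gained islands of high relative ratio were small. Islands were ranked if they had 50 or more H3K27me3 reads and lay 10 kb or more from other lines' islands. The highest, on chromosome 6 from 164435251 to 164437500, had 62 H3K27me3 and 15 input reads. Its relative ratio of 2.26 had a wide interval, 1.27 to 4.27. An island on chromosome 1 from 1470751 to 1475250 had 212 and 56 reads and a relative ratio of 2.07 (1.53 to 2.83). Its H3K27me3 reads per kb were 2.40 times the Pfeiffer median. The exception in length was on chromosome 12 from 34449751 to 34529250, an island of 79.5 kb with 2097 and 755 reads. Its relative ratio was 1.52 (1.39 to 1.65), the most precise of the 12. Relative ratios of 1.5 or more were found in 23 gained islands, or 1.01%, against 2.20% of all Pfeiffer islands.

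The longest gained islands lay mostly where Pfeiffer had more input. Of the 12 longest, 10 were in bins of raised Pfeiffer input. Such bins held 19.97% of all gained bases, close to the 20.03% of all Pfeiffer-covered bases in them. Pfeiffer islands of any kind were long in most runs of raised bins. On chromosome 5 from 119000001 to 180715500 their median was 42.75 kb, against 20.25 kb for the whole list. The longest, on chromosome 5 from 121389001 to 121541250, spanned 152.25 kb with 3186 H3K27me3 and 2303 input reads. Its relative ratio was 0.755 (0.716 to 0.797) and the local inputs were 1.42, 0.973 and 0.964 for Pfeiffer, WSU-DLCL2 and KARPAS-422. This island was long but weakly enriched over its input. On chromosome 17 from 55493251 to 55638750 an island of 145.5 kb had a relative ratio of 0.871 (0.827 to 0.918), also at an input of 1.41. The run on chromosome 8 from 68788501 to 70215000 joined 9 gained islands of 486.75 kb in all. Its pooled relative ratio was 0.746 (0.725 to 0.769), with local inputs of 1.4, 1.34 and 0.986 for Pfeiffer, WSU-DLCL2 and KARPAS-422. The part of the raised input in these calls was not tested.

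The longest gained islands of balanced bins were shorter, and most of the 8 lay nearer to the typical ratio than the longest one overall. The first, on chromosome 1 from 64910251 to 65017500, spanned 107.25 kb with a relative ratio of 0.946 (0.881 to 1.02). The island on chromosome 10 from 11552251 to 11623500 spanned 71.25 kb at 1.02 (0.936 to 1.12). On chromosome 6 from 24875251 to 24942000, 66.75 kb had a relative ratio of 1.08 (0.988 to 1.18). The intervals of these 3 islands included 1, as did that of 1 further island of the 8, and the intervals of the other 4 lay below 1. Of the 8 longest in balanced bins, the lowest value was 0.727 (0.667 to 0.794), on chromosome 1 from 226824001 to 226887750.

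The run of raised input on chromosome 2 from 88000001 to 94000000 had the highest gained share of the 20 runs of at least 5 raised bins, with 23 of 42 Pfeiffer islands. The short arm of this chromosome carries the immunoglobulin kappa locus, whose position was again not used. Input there was raised in all 3 lines, at 2.07, 1.4 and 1.38 times the median. The island with the most H3K27me3 reads of all gained islands lay in it, from 89247751 to 89331750, with 4202 H3K27me3 and 2386 input reads. It had 2.55 times the list's median H3K27me3 reads per kb, but also 2.64 times the median input reads per kb. Its relative ratio was 0.961 (0.914 to 1.01).

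Lost stretches covered 68.4 Mb, 13.5% of the bases that both other lines covered. Of 21530 stretches of at least 5 kb covered in both, 24.1% held a lost stretch. For WSU-DLCL2 the corresponding share was 26.5% and for KARPAS-422 30%. The median length was 9.75 kb, 671 were 20 kb or longer and 87 were 50 kb or longer. At the minimum length, 493 stretches of 5.25 kb were kept and 611 of 4.5 kb were not. The gained rule takes whole islands and the lost rule takes stretches, so the 2 sizes are not mirror images. Taken as stretches of the same minimum length, regions covered in Pfeiffer alone numbered 6572 and covered 94.97 Mb.

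Lost stretches were of different kinds. Those touching no Pfeiffer island numbered 3284 (61.1%) and covered 44.5 Mb. A further 1632 touched a Pfeiffer island on 1 side, and 462 were gaps with a Pfeiffer island on both sides. The islands holding the isolated ones had median relative ratios of 0.952 (WSU-DLCL2) and 0.946 (KARPAS-422). For the gaps these were 1.11 and 1.06. The islands around gaps were thus the more enriched. Over all lost stretches the medians were 0.984 and 0.962, against 1.02 and 1.03 over all stretches covered in both lines. Both ratios were above 1 for 27.1% of lost stretches, against 37.8% of all stretches covered in both. At 50 kb or longer these shares were 62.1% and 71.4%.

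Of the 15 longest lost stretches, 6 lay in bins of low Pfeiffer input and 5 in balanced bins. On chromosome 12 from 105014251 to 105162000, 147.75 kb were covered in both other lines and not in Pfeiffer. The WSU-DLCL2 island had 5815 H3K27me3 and 2451 input reads and a relative ratio of 1.21 (1.16 to 1.27). The KARPAS-422 island had 3228 and 1148 reads and 1.06 (0.991 to 1.13). Input in the bin was 0.979, 1.04 and 1.01. A second stretch of 95.25 kb lay nearby on the same chromosome, from 104870251 to 104965500, with ratios of 1.2 and 1.1. Pfeiffer thus lacked islands over neighbouring long stretches of this region, although its nearest island was 4.5 kb from the first of them.

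On chromosome 22 from 46782001 to 46926000, 144 kb were lost. The WSU-DLCL2 island had a relative ratio of 1.27 (1.22 to 1.32) and the KARPAS-422 island 1.43 (1.33 to 1.54), and the local inputs were 0.990, 0.975 and 0.851. On chromosome 9 from 117161251 to 117269250, 108 kb were lost next to a Pfeiffer island. There the ratios were 1.29 (1.23 to 1.36) and 1.21 (1.14 to 1.28). Both stretches lay in balanced bins and in islands above the typical ratio of both lines. The third longest, on chromosome 3 from 188832751 to 188959500, differed. Its ratios were 0.733 and 0.780, and the local input was 1.03 for Pfeiffer but 1.55 for WSU-DLCL2 and 1.59 for KARPAS-422.

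Few lost stretches were strongly enriched in both other lines. Both relative ratios reached 1.5 in 54, or 1.00%, against 1.87% of all stretches covered in both. On chromosome 11 from 64590751 to 64613250, 22.5 kb were lost, 63 kb from the nearest Pfeiffer island. The WSU-DLCL2 island had a ratio of 1.74 (1.53 to 1.98) and the KARPAS-422 island 1.79 (1.48 to 2.16). The input pooled around the bin was 1.01, 0.980 and 0.890. On chromosome 16 from 67552501 to 67576500, 24 kb with ratios of 1.76 and 1.90 were lost, and the Pfeiffer input pooled around that bin was 1.4. In both cases the Pfeiffer value comes from islands elsewhere in the pooled window, and the reads in the stretch itself are unknown. Of the 10 stretches ranked highest by the smaller ratio, all 10 kb or more from Pfeiffer islands, 5 lay in the low-input part of chromosome 17 described below.

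The balanced bin with the most lost bases was on chromosome 12 from 129000001 to 130000000. Pfeiffer had no island in it, while WSU-DLCL2 islands covered 47.9% and KARPAS-422 islands 42.9%. All 343.5 kb that both lines covered fell into 20 lost stretches. Pfeiffer input, read from islands within 2 Mb of the bin, was 0.989. Pooled relative ratios were 0.927 (0.897 to 0.958) over 14 WSU-DLCL2 islands and 1.12 (1.08 to 1.17) over 25 KARPAS-422 islands. On chromosome 7 from 157000001 to 158000000, in contrast, coverage was 47.4% in Pfeiffer, 73.6% and 78.2%. There Pfeiffer kept part of the domain, and its own islands had a pooled ratio of 1.18 (1.14 to 1.22).

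A large share of the lost bases lay in bins of low Pfeiffer input. Such bins held 2.91% of the bases both other lines covered but 18.2% of the lost bases. In them 84.1% of the bases covered in both were lost, against 11.5% in balanced bins and 5.35% in bins of raised Pfeiffer input. No gained island lay in a low-input bin, but such bins held only 0.324% of the bases that Pfeiffer covered. The other lines showed the same order, with 83.8% lost in low-input bins of WSU-DLCL2 and 67.6% in those of KARPAS-422, against 13.4% and 13.8% in balanced bins. Input reads move with the amount of DNA, among other influences. Fewer H3K27me3 reads from less DNA and a lower level of the mark per DNA copy cannot be told apart by the presence of islands. Leaving out the 3 runs of low input, with any bins of unreadable input inside them, left 4706 lost stretches of 55.3 Mb. Bins with raised input in WSU-DLCL2 or KARPAS-422 held 31.0% of lost bases and 15.3% of the bases covered in both. Without bins of low Pfeiffer input, such bins held 18.2% of lost bases and 13.3% of those covered in both. The part of raised input in the other lines was not tested.

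**Figure D3:**
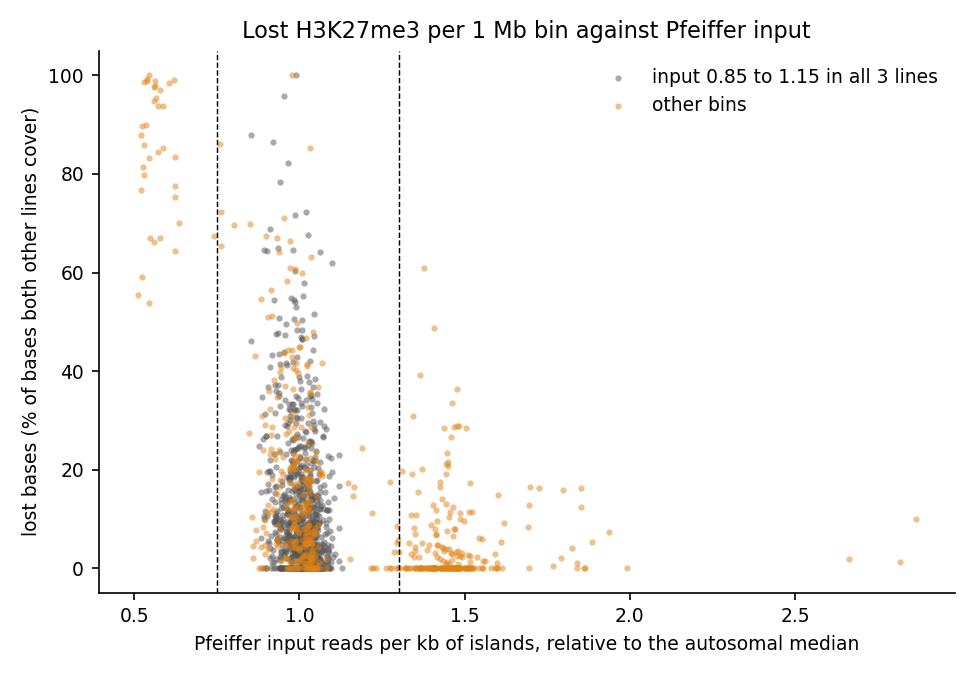
Each point is a 1 Mb bin with at least 100 kb covered in both other lines (1392 bins), by Pfeiffer input reads per kb relative to the autosomal median and by the percent of those bases that were lost, and dashed lines mark 0.75 and 1.3. All 36 low-input bins lie above 50%, as do 50 of the 1356 others, some of them balanced.

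Most of the low-input loss lay in 2 blocks. Both blocks also take in bins where Pfeiffer had too few islands for its input to be read. The first, on chromosome 8 from 5000001 to 44000000, held 418 lost stretches of 8.88 Mb, or 13.0% of all lost bases. Pfeiffer islands covered 2.98% of the block, WSU-DLCL2 islands 42.5% and KARPAS-422 islands 27.6%. The local input was 0.572 for Pfeiffer, 1.41 for WSU-DLCL2 and 0.962 for KARPAS-422. WSU-DLCL2, which covered the most of the block, also had the highest input in it. The 5 bins just before the block had Pfeiffer inputs of 0.759 to 0.782, barely above the limit for low input, and 75.1% of the bases covered in both others were lost there too. In the bin from 20000001 to 21000000, the bin with the most lost bases anywhere, coverage was 0.450%, 88.0% and 76.9%.

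The second block, on chromosome 17 from 1 to 18000000, held 253 lost stretches of 4.19 Mb. Islands covered 5.53% (Pfeiffer), 35.8% (WSU-DLCL2) and 43.0% (KARPAS-422) of it, at inputs of 0.530, 0.932 and 0.906. The other lines had ordinary input in this block, and Pfeiffer alone was low. Pfeiffer kept 65 islands in the chromosome 8 block and 68 in that of chromosome 17. The kept islands had median relative ratios of 1.51 and 1.59, well above the list median. Only islands that passed the call are counted, and the part of the lower input in these medians was not tested. The longest stretch lost in the chromosome 17 block, from 2754751 to 2871000, spanned 116.25 kb and lay in a WSU-DLCL2 island with a relative ratio of 1.48 (1.41 to 1.55) and a KARPAS-422 island with 1.55 (1.43 to 1.69).

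**Figure D4:**
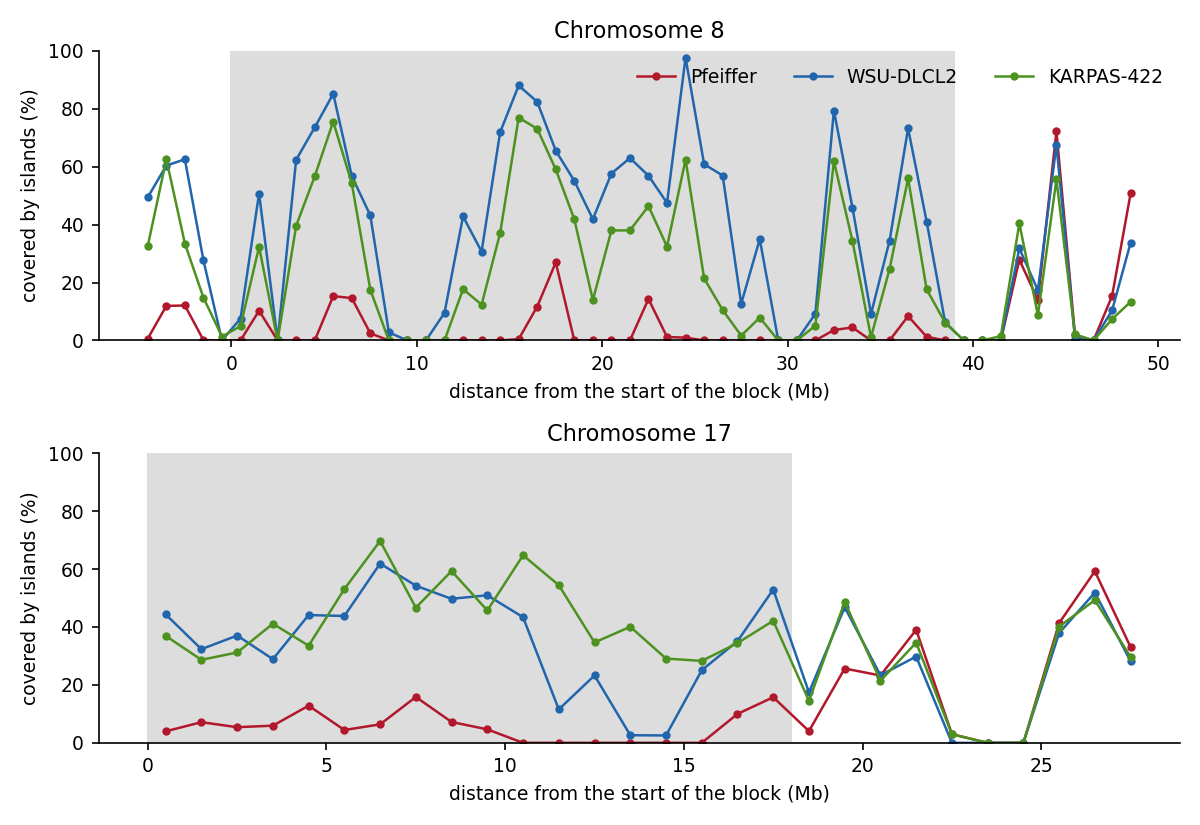
Percent of each 1 Mb bin covered by islands of the 3 lines along the low-input blocks of chromosomes 8 and 17 (grey) and the bins beside them, by distance in Mb from the start of the block. Within the blocks Pfeiffer covers 2.98% and 5.53% in all and lies below both other lines in most bins, before the chromosome 8 block Pfeiffer is lower in the same way, and beyond the right edges the 3 lines lie close together in most bins.

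Chromosome 8 was the only chromosome whose share of lost bases was at least 2 times its share of the bases covered in both other lines. It held 10.9 Mb of lost stretches, 43.9% of what both others covered on it. By the same rule KARPAS-422 lost 32.4% there, 2.05 times its share of covered bases, and WSU-DLCL2 lost 23.4%, so a high share on this chromosome was not limited to Pfeiffer. Chromosome 17 followed with 20.2%, and chromosome 16 had the lowest value at 3.61%. Chromosome 5 was next lowest with 5.81%. Over whole chromosomes the Pfeiffer input was raised at both ends of this order, at 1.38 and 1.4 times the median on chromosomes 8 and 17 and at 1.46 and 1.42 on chromosomes 16 and 5. On chromosomes 8 and 17 that value comes mostly from islands outside the low-input blocks, where Pfeiffer had few islands. For gained bases chromosome 4 was the only one to pass the same limit. On it 11.7% of Pfeiffer-covered bases were gained, against 16.8% for WSU-DLCL2 and 16.7% for KARPAS-422, so a high share there was common to the 3 lines. The lowest gained shares were 1.61% on chromosome 19 and 1.76% on chromosome 22.

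**Figure D5:**
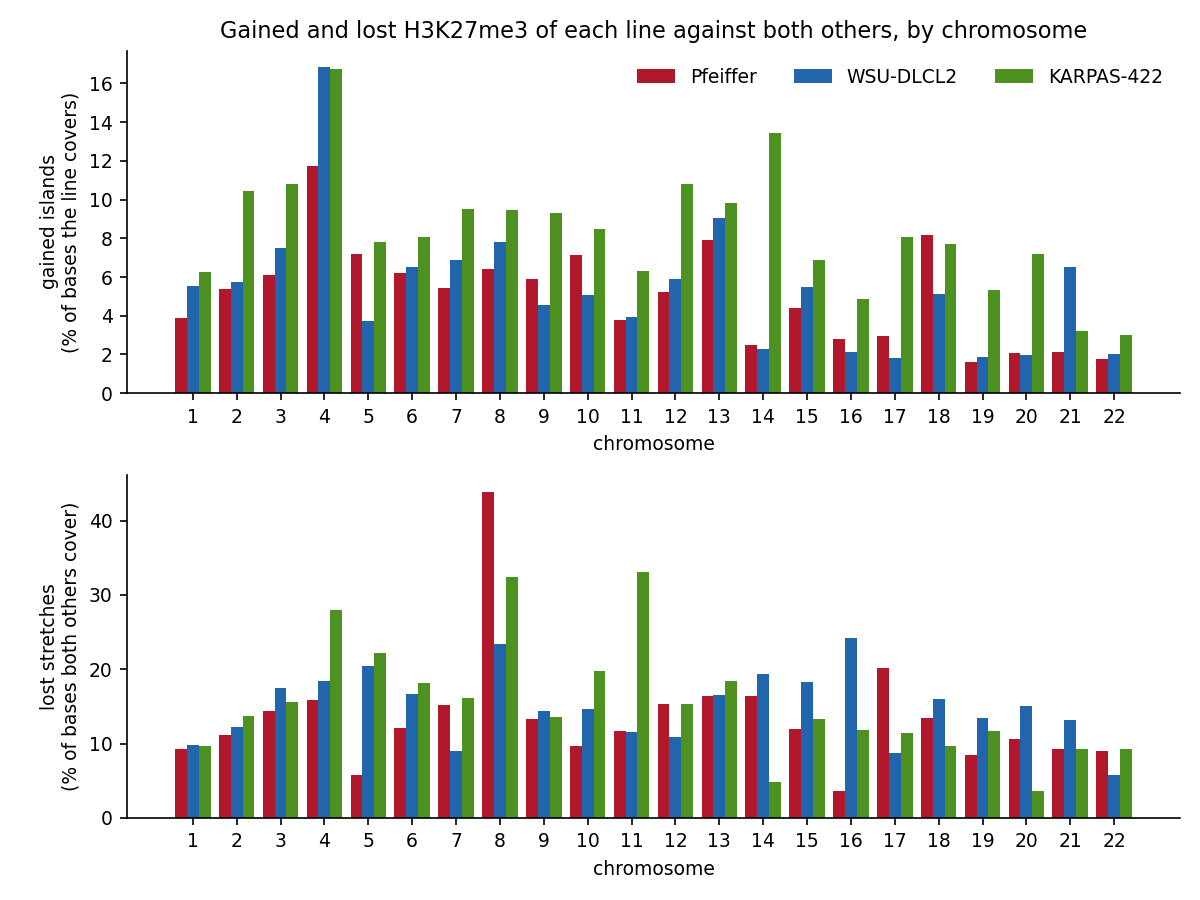
Gained bases as a percent of the bases a line covers (top) and lost bases as a percent of the bases both other lines cover (bottom), by autosome, for each line against the other 2. Chromosome 4 is high in all 3 lines for gained bases (11.7%, 16.8% and 16.7%), and the Pfeiffer bar of chromosome 8, at 43.9%, is the highest for lost bases.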

How the data were processed

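H3K27me3 and input libraries of 3 cell lines were compared through the deposited island lists, 1 per line. The authors aligned reads with Bowtie to hg19 and called islands with SICER, per the submitters' processing notes (no versions used here). List names state windows of 750 bases, gaps of 2250 bases and a limit of 0.001 for the false discovery rate. How reads were filtered and duplicates handled is not given in the sources used here. For every island the authors deposited whole counts of H3K27me3 and input reads, a p-value, a fold (ratio over scaled input) and a q-value. The counts were used for all ratios here, the q-value only in alternatives, and the authors' fold was not printed.

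Overlaps were computed on the grid of 750 bases over 22 autosomes, and positions are printed counted from 1. Gained and lost regions, the input classes (bins of 1 Mb pooled with islands up to 2 Mb away on each side, where these made 30 kb or more) and the named regions followed set rules. Named gained islands were the 12 highest by relative ratio (50 or more H3K27me3 reads, 10 kb or more from other lines' islands), the 12 longest, the 8 with most H3K27me3 reads and the 8 longest in balanced bins. Named lost stretches were the 15 longest, the 10 highest by the smaller of the 2 ratios and the 8 longest in balanced bins. The ranking by ratio took only stretches 10 kb or more from Pfeiffer islands, with 50 or more H3K27me3 reads in both holding islands. Bins and chromosomes were ranked by gained and lost bases. Examples in the text come from these ranks, from islands at the edges of the rule and from runs of adjacent gained islands or of at least 5 bins of low or raised input, which were described after values had been seen. Runs of bins could take in bins of unreadable input. Members and lists were chosen with earlier results of these data known. No hg19 annotation was used, so planned gene lists were not run. Scripts were tested on simulated data. The software was matplotlib 3.10.9, scipy 1.17.1, pandas 2.3.3 and numpy 2.4.6 under Python 3.11.15. Alternatives covered list thresholds, list sizes, joining, overlap and length minimums and input limits.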

Additional observations from a re-analysis of the deposited data

Results flagged for a closer look

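Chromosome X was outside the comparison and still held regions that meet both rules. There were 4 Pfeiffer islands on it without overlap in the other lines, 44.25 kb in all, with 862 H3K27me3 and 439 input reads. Stretches of at least 5 kb covered in both other lines and not in Pfeiffer numbered 57 and covered 639 kb. On this chromosome Pfeiffer had 60 islands, WSU-DLCL2 114 and KARPAS-422 883.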

How the results depend on the processing

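Limiting all lists to a false discovery rate of at most 1e-10 left 3358 lost stretches with a median of 12 kb, and gained islands with a median of 18 kb and a relative ratio of 1.03. With islands at or above the median ratio of their list there were 2452 lost stretches of 41.7 Mb with a median of 11.25 kb, a gained relative ratio of 1.08, 13.9% of lost bases in low-input bins and 2.97% of gained bases in raised-input bins, against 19.97% in the lists as deposited. Equal numbers of islands gave a lost median of 10.5 kb and 21.3% of lost bases in low-input bins. Equal covered length gave a gained relative ratio of 0.933, 17.1% of lost bases in low-input bins and 13.4% of gained bases in raised-input bins. Joining islands under 5 kb apart gave a lost median of 10.5 kb and a gained relative ratio of 0.910.

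Requiring no other island within 10 kb left 1510 gained islands. Lost stretches numbered 8120, 2531 and 671 (22.3 Mb) at minimum lengths of 3, 10 and 20 kb, and 2389 (33.8 Mb) with no Pfeiffer island within 10 kb. An input window of 1 Mb to either side placed 16.1% of lost bases in low-input bins, and a low limit of 0.8 placed 19.4%. Raised limits of 1.2 and 1.4 placed 22.6% and 11.9% of gained bases in raised-input bins. Balanced bins alone held 1493 gained islands and 3066 lost stretches. Of alternatives added after the data had been seen, gained regions taken as stretches numbered 6572 (94.97 Mb) and whole uncovered stretches 3304 (44.7 Mb). Over counts, lengths, ratios and input shares, 34 recomputed values left their tolerance and 52 stayed within it. For counts and Mb the tolerance was a factor of 1.5, so that 1840 gained islands and 55.4 Mb of lost stretches at a false discovery rate of at most 1e-10 counted as within it. For medians and shares it was a 95% interval taken over the members. It treats neighbouring members as independent and, for shares of bases, counts members in place of bases. It is thus only a working limit. Of 32 named gained islands, 14 were called with islands at or above the median ratio, and of 28 named lost stretches 23 were. That filter drops every Pfeiffer island with a relative ratio below 1. The 14 gained islands kept, and a gained median ratio above 1 under this filter, therefore follow from the filter itself. Causes of the other changes were not tested.

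No paired analysis was possible because each line had 1 H3K27me3 library. For the same reason no spread between replicates is known. The lists hold islands only, so Pfeiffer reads in lost stretches are unknown. A change of input shorter than the pooled window can be missed, and the input of a bin without islands is read from its neighbours.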

Other observations

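Regions near chromosome ends were counted without a test. Within 5 Mb of an end lay 131 of 2288 gained islands, or 5.73%, against 10.8% of all 21258 Pfeiffer islands. Lost stretches had 521 of 5378, or 9.69%, near an end, against 12.2% of the stretches covered in both other lines. Of 2893 bins, 1038 held a gained island, 1521 a lost stretch and 643 both. The 10% of bins with the most lost bases held 57.0% of them, and the 10% with the most gained bases held 65.0%.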
